A study of Rattus norvegicus with 24 samples.

Results

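Primary rat hepatocytes kept between 2 layers of collagen gel until day 8 were compared with cells kept on a single layer until day 3. The first group is called sandwich day 8 and the second monolayer day 3. Each had 3 arrays, chosen by the titles of the samples, so 6 of the 24 arrays of the series entered the comparison. All probe sets other than the array's control probe sets were read. The whole series holds both cultures at days 1, 2, 3 and 8 with 3 arrays in each of the 8 groups.

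Per the labels, all the cells were rat hepatocytes seeded on a collagen gel, and the second layer of the sandwich was poured 24 h later. Days were counted from the pouring of that layer. Both cultures were fed the same medium, which held fetal bovine serum, epidermal growth factor, insulin, glucagon and hydrocortisone and was changed daily. The labels call the sandwich a stable culture and the monolayer an unstable one. The labels give no strain, sex or age of the animals, and leave unsaid if replicates were different rats, isolations or wells. The p-values thus measure only how these samples spread, which may be technical.

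Hepatocytes make most plasma proteins, clear ammonia through the urea cycle, burn fatty acids, make bile acids and detoxify drugs. On a stiff or open surface they flatten, build actin stress fibres and lose these functions over days. A second layer of collagen restores contact with matrix on both faces of the cell and is known for keeping polygonal cells with bile canaliculi. The comparison asks whether an old sandwich has only come as far as a young monolayer has, or holds a different set of transcripts. Day and culture differ together here, so their parts in a difference cannot be told apart within the comparison itself, and the levels of the other 6 groups are given beside it.

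The values are log2 probe set summaries on an Affymetrix rat array, and a level below means such a value. Of 31099 probe sets, 31042 were tested after 57 control probe sets were left out, and 14217 genes were read, each by 1 probe set. Pearson correlations across all probe sets were 0.993 to 0.995 among the sandwich day 8 arrays, 0.994 to 0.996 among the monolayer day 3 arrays, and 0.979 to 0.983 between the groups. They describe likeness across features and carry no test. The mean level of the 6 measured hepatocyte markers, among them Alb and Ttr, was 13.39 to 13.46 on the sandwich day 8 arrays and 12.96 to 13.02 on the monolayer day 3 arrays. The 3′ minus 5′ level of the beta-actin control probe sets, a sign of RNA integrity, was 1.21, 0.94 and 0.90 in sandwich day 8 and 0.80, 0.80 and 0.83 in monolayer day 3. Sandwich day 8 was higher on each array, with an exact permutation p of 0.1, the smallest that 3 against 3 allows. For GAPDH the same measure averaged 0.38 ± 0.09 in sandwich day 8 and 0.33 ± 0.08 in monolayer day 3 (SD, n = 3 each; exact permutation p = 0.5). The beta-actin 3′ level itself was 13.04, 13.27 and 13.09 in sandwich day 8 and 13.79, 13.75 and 13.80 in monolayer day 3. The GAPDH 3′ level averaged 13.85 and 13.81. The beta-actin measure was thus read at unlike levels of that transcript in the 2 groups. The part of RNA integrity in the results was not tested.

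Sandwich day 8 differed from monolayer day 3 in a large share of the transcripts, and mostly by less than 2-fold. A probe set was called where limma's adjusted p was under 0.05. In all, 5732 of 31042 probe sets were called (18.5%), with 2548 higher (8.21%) and 3184 lower (10.3%) in sandwich day 8. Of the called probe sets, 752 differed at least 2-fold, 426 of them higher and 326 lower. Read by gene, 3546 of 14217 were called (24.9%), 1525 higher (10.7%) and 2021 lower (14.2%), with a median difference of -0.01 over all genes. Each list count below is to be read beside these shares of higher and lower genes. The difference is sandwich day 8 minus monolayer day 3 on the log2 scale throughout, given with its standard error (SE).

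Many genes stood close together in the 2 groups. The 95% confidence interval of the difference lay within 0.5 on both sides of 0 for 9791 genes (68.9%), of which 368 were called all the same. Of the 9642 genes with a mean level at or above 5.63, the median of all probe sets, 5956 were close in this sense. The rest of the 9791 lay below that level, where the background is unknown. Genes of high level in hepatocytes were among the close genes. Albumin (Alb) had levels of 15.02, 15.02 and 15.00 in sandwich day 8 and 15.00, 15.01 and 15.00 in monolayer day 3, near the top of the scale at 15.07, where a difference can be compressed.

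Set against all the other groups in turn, sandwich day 8 differed in the fewest probe sets from sandwich day 3, with 3470 called (11.2%). Against monolayer day 1 it was 8596 (27.7%), against day 2 5874 (18.9%), against day 3 the 5732 given above, and against day 8 8543 (27.5%). Against sandwich days 1 and 2 the counts were 7694 (24.8%) and 5408 (17.4%). Among the monolayer days, days 2 and 3 thus gave similar counts, and days 1 and 8 higher ones. The mean absolute difference was 0.269, 0.213, 0.216 and 0.277 against monolayer days 1, 2, 3 and 8, and 0.171 against sandwich day 3. These comparisons share the sandwich day 8 arrays, so only their counts are set side by side.

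**Figure D1:**
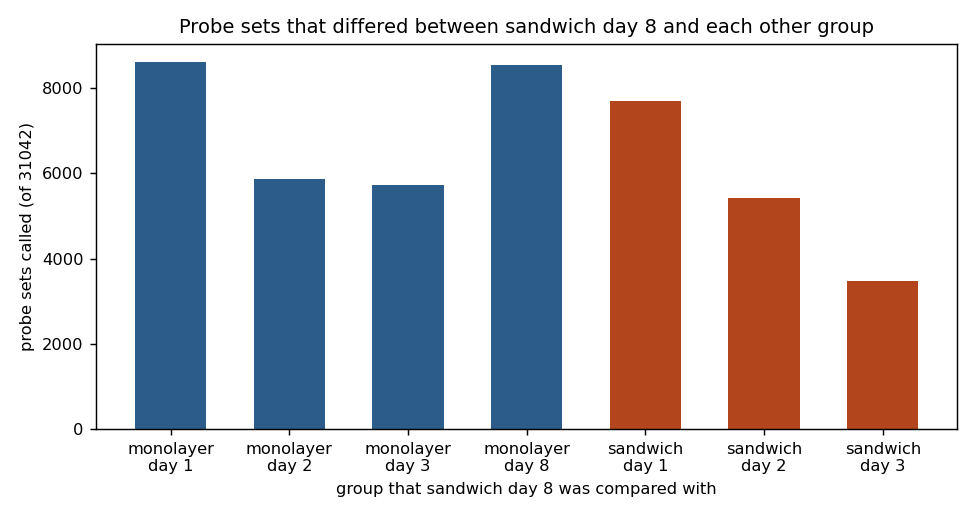
Number of probe sets called when sandwich day 8 was compared with each of the 4 monolayer groups (blue) and each of the other sandwich groups (orange), on an axis that starts at 0. The bars for monolayer days 2 and 3 (5874 and 5732) are lower than those for monolayer days 1 and 8 (8596 and 8543), and the lowest bar is that for sandwich day 3 (3470).

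The 12 largest rises were led by genes of fasting metabolism, steroid handling and drug metabolism. Pdk4, the kinase that turns off pyruvate dehydrogenase when fatty acids are burned, had levels of 10.07, 10.57 and 10.17 in sandwich day 8 and 4.74, 4.80 and 5.0 in monolayer day 3. The groups lay far apart, with a difference of 5.42 (SE 0.18, adjusted p = 1.54e-16). No fold is given for it, since its monolayer day 3 level lies under 5.63, the median level on the array, where the background is unknown, and none is given below for any gene with a group mean under that level. Cyp17a1, a steroid hydroxylase, had 9.53, 9.61 and 9.44 in sandwich day 8 and 5.15, 5.02 and 4.86 in monolayer day 3. Ugt2b1, which joins glucuronic acid to steroids and drugs, had 11.78, 11.64 and 11.57 in sandwich day 8 and 7.28, 7.46 and 7.25 in monolayer day 3. It was 20.2-fold higher in sandwich day 8 (log2 difference 4.34, SE 0.12, adjusted p = 4e-18).

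The other leading rises were of the same kind, with a few exceptions. Cyp3a23-3a1, a drug-metabolizing cytochrome P450, was 15.8-fold higher, and Sult2a2, a sulfotransferase of steroids and bile acids, 10.2-fold higher. Apoc1, an apolipoprotein, was 9.69-fold, Cyp4a1, a fatty acid hydroxylase, 8.76-fold, and Cpt1a, which admits fatty acids to mitochondria, 8.44-fold higher. Gde1, a glycerophosphodiester phosphodiesterase, was 8.14-fold and Ftcd, an enzyme of histidine breakdown, 7.97-fold higher, and the fatty acid carrier Fabp1 differed by 3.60. Clec14a, a lectin known from endothelial cells, had 7.99, 7.72 and 6.82 in sandwich day 8 and 3.55, 3.29 and 3.45 in monolayer day 3. Its spread in sandwich day 8 was the widest of the 12, yet no arrays overlapped.

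The 12 largest falls were led by Acta1, Car3 and Tagln. Acta1, the actin of skeletal muscle, had levels of 6.65, 5.91 and 5.80 in sandwich day 8 and 11.85, 11.51 and 11.91 in monolayer day 3, which is 49.8-fold lower (difference -5.64, SE 0.30, adjusted p = 4.77e-13). Car3, a carbonic anhydrase, had 6.02, 5.49 and 5.75 in sandwich day 8 and 11.18, 10.85 and 11.25 in monolayer day 3, 40.4-fold lower. Tagln, a protein that binds actin filaments in smooth muscle, had 7.33, 6.63 and 6.67 in sandwich day 8 and 11.33, 11.15 and 11.39 in monolayer day 3, 21.3-fold lower. Every sandwich day 8 array lay far below every monolayer day 3 array for these genes.

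The other 9 of these falls were of several kinds. Sox4, a transcription factor of progenitor cells, had 7.86, 7.49 and 7.42 in sandwich day 8 and 11.22, 11.23 and 11.35 in monolayer day 3, 12.8-fold lower, and 5 further probe sets of the gene were also called lower. Mat2a, the form of methionine adenosyltransferase found outside the adult liver, had 5.13, 5.22 and 4.97 in sandwich day 8 and 8.21, 8.09 and 8.12 in monolayer day 3 (difference -3.03). Its counterpart of adult hepatocytes, Mat1a, was higher by 1.53. Marcksl1, a regulator of actin at the membrane, was 6.60-fold and Cxcl3, a chemokine for neutrophils, 5.78-fold lower. The progenitor antigen Cd24, the brain form of fatty acid-binding protein Fabp7 and the phospholipid scramblase gene Plscr2 differed by -2.75, -2.77 and -2.97. Ifgga2l1 at -2.87 and Fam25a, 6.97-fold lower, completed the 12. Sox4 and Cd24 belong to the fetal liver and progenitor list, in which 2 of 16 measured members were higher and 3 lower, with a median of 0.08. The 2 were Epcam and Afp, a main plasma protein of the fetus, which had levels of 7.56, 7.55 and 7.43 in sandwich day 8 and 6.77, 6.69 and 6.78 in monolayer day 3, 1.7-fold higher. Without sandwich day 8 replicate 3, 4 members of the list were called higher. Over all genes 10.7% were called higher and 14.2% lower, so the counts of this list were near those shares.

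**Figure D2:**
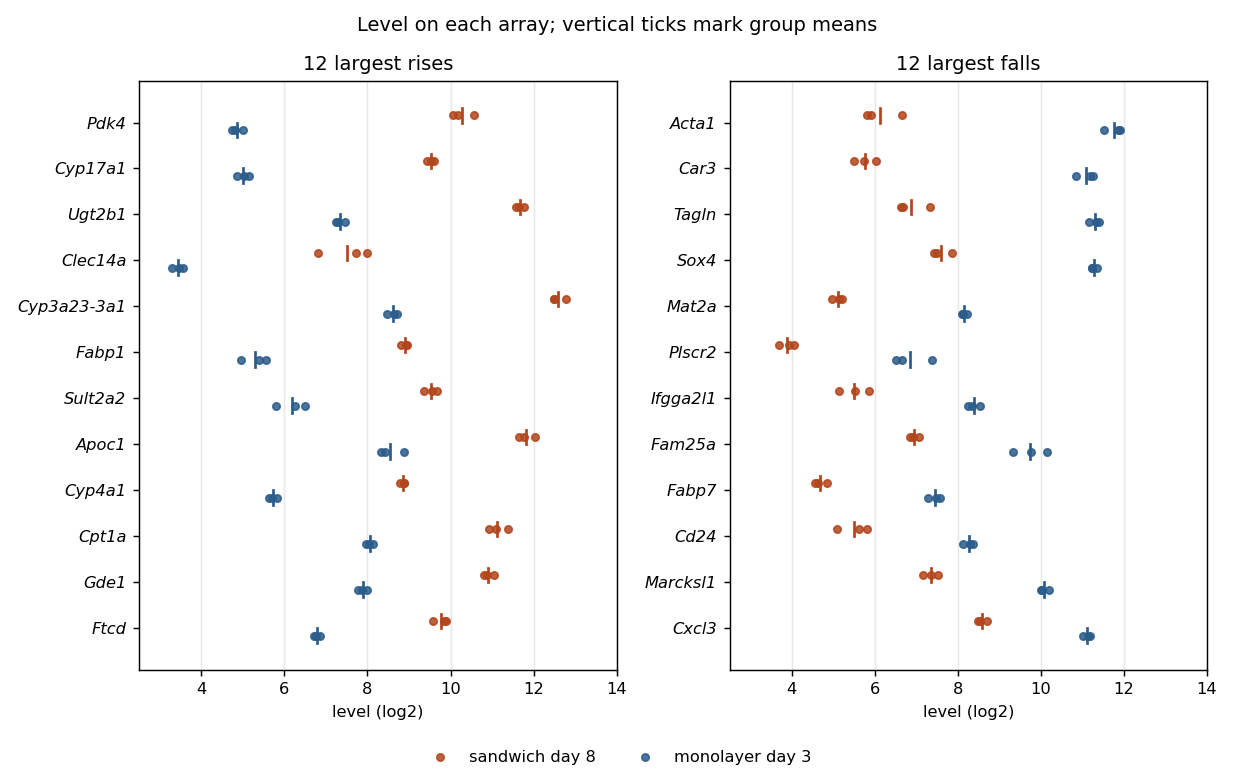
Level (log2) of the 12 genes with the largest rises (left) and the 12 with the largest falls (right) on each array, sandwich day 8 in orange above monolayer day 3 in blue, with a tick at each group mean (n = 3). No gene shown has arrays of the groups that overlap, and Acta1 and Car3 differ by over 5 log2 units.

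Genes for the breakdown of amino acids and of fatty acids were mostly higher. Among 38 measured genes of the urea cycle and amino acid breakdown, 33 were higher and 1 lower in sandwich day 8, with a median difference of 1.06, against 10.7% higher, 14.2% lower and a median of -0.01 over all genes. Arg1, which releases urea from arginine, had levels of 13.17, 13.22 and 13.21 in sandwich day 8 and between 10.89 and 11.03 in monolayer day 3, 4.69-fold higher. The entry enzyme of the cycle, Cps1, was 1.78-fold higher (levels 12.36, 12.39 and 12.23 in sandwich day 8, 11.50, 11.44 and 11.54 in monolayer day 3). The aminotransferase Got1 was 6.11-fold, the glycine methyltransferase Gnmt 5.55-fold, the homogentisate oxidase Hgd 4.83-fold and the tyrosine aminotransferase Tat 2.73-fold higher. The exception was Aass, the first enzyme of lysine breakdown, at -0.79.

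Fatty acid oxidation and ketone body genes were higher in 26 of 28 measured members, with none lower and a median of 1.13; at an unadjusted p under 0.05 limma also found none lower. Besides Pdk4, Fabp1, Cyp4a1 and Cpt1a these were Cyp4a3, a fatty acid hydroxylase (6.05-fold), the beta-oxidation enzymes Acaa2 at 2.07 and Ehhadh at 1.96, and Cpt2, which works with Cpt1a in the entry of fatty acids to mitochondria, at 1.91. Acadm, a dehydrogenase for medium chains, at 0.09, and Bdh1, of ketone body production, at 0.06 did not pass the test. Among 15 genes of gluconeogenesis, fructose and glycogen, 11 were higher and 1 lower. None was called lower without monolayer day 3 replicate 3 or sandwich day 8 replicate 1 or 3. Under some other settings, among them quantile normalization and a filter on low values, 2 were called lower. Pck1, the committed step of glucose production, had 12.04, 12.15 and 12.15 in sandwich day 8 and 9.49, 9.38 and 10.03 in monolayer day 3, 5.58-fold higher. Fructose bisphosphatase Fbp1 was 4.24-fold, glycogen synthase Gys2 3.14-fold and pyruvate carboxylase Pc 2.72-fold higher.

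Fabp1 is a target of PPAR-alpha, a nuclear receptor for fatty acids known to bind direct repeats of AGGNCA with a gap of 1 base, and its promoter is shown because it holds such a repeat. The search for this repeat on both strands covered 27457 rat promoters of RefSeq (build GRCr8), each from 250 bases before to 50 bases after the start. It found the letters in 0.412% of them and in 1 of the 23 promoters found for measured fatty acid oxidation genes. The stretch is the 150 bases before the start, 4:104749190-104749339, plus strand. Capitals mark the repeat, read on the opposite strand, from 77 to 65 bases before the start; a match of letters shows no binding.
Fabp1: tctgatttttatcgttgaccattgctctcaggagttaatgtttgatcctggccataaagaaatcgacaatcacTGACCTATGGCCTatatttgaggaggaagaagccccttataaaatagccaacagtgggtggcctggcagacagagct

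Transcripts of lipid synthesis genes were mostly higher too. Of 19 measured genes of cholesterol synthesis, 18 were higher and none lower, also at an unadjusted p under 0.05 by limma, with a median of 0.74; Fdps, which makes farnesyl diphosphate, was 2.18-fold and Insig1, which holds back the pathway when sterols abound, 2.60-fold higher. Srebf2, the transcription factor of the pathway, was at -0.10 and did not pass the test. Fatty acid synthesis had 16 of 22 higher and none lower (1 at an unadjusted p under 0.05 by limma), with Lpin1, a phosphatidate phosphatase, 5.47-fold, Elovl2, an elongase of polyunsaturated chains, 4.68-fold and Acss2, which makes acetyl-CoA from acetate, 2.89-fold higher. Srebf1 at 0.19 and Mlxipl at -0.02, the transcription factors of that pathway, did not pass either.

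Secreted proteins split by gene. Plasma carriers and apolipoproteins were higher in 19 of 25 measured members, with 1 lower and a median of 0.56. Rbp4, the carrier of retinol, had levels of 13.50, 13.27 and 13.14 in sandwich day 8 and 11.21, 11.12 and 10.78 in monolayer day 3, 4.80-fold higher. Histidine-rich glycoprotein Hrg was 7.01-fold, Apoc2 4.81-fold and Apoa4 3.78-fold higher, while transthyretin, Ttr, was 1.48-fold higher. Serpina6, which carries corticosteroids, was the member that fell, by 1.44 on the log2 scale. Coagulation and complement genes had 16 of 27 higher and 2 lower (1 without sandwich day 8 replicate 3), with factor IX (F9) 2.85-fold higher, and the fibrinogen chains Fga, Fgb and Fgg between -0.03 and 0.04. Acute phase genes had 8 of 19 higher, among them haptoglobin (Hp), 1.44-fold. The shares over all genes, beside these list counts, were 10.7% higher and 14.2% lower. Without monolayer day 3 replicate 3, or without sandwich day 8 replicate 1, none of the acute phase genes was called lower, against 1 with all arrays.

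Detoxification was divided within its families. Phase I genes had 16 of 35 higher and 3 lower with a median of 0.24, and phase II genes 18 of 32 higher and 3 lower with a median of 0.47. Cyp2c7, a cytochrome P450, was 5.32-fold higher, Cyp1a1, induced through the aryl hydrocarbon receptor, 4.73-fold and Cyp2e1, which oxidizes ethanol, 2.22-fold. The steroid and drug conjugating gene Ugt2a1 rose by 2.10. Ces1c, a secreted carboxylesterase, was 4.85-fold lower, and Gstp1, the glutathione transferase of bile ducts and of altered hepatocytes, 2.55-fold lower. Gstp1 levels were 10.86, 10.94 and 10.97 in sandwich day 8 and 12.28, 12.27 and 12.28 in monolayer day 3, which do not overlap.

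Bile acid genes were higher in 13 of 17 measured members, with none lower, also at an unadjusted p under 0.05 by limma. Cyp8b1, which sets the share of cholic acid, had levels of 8.60, 8.80 and 8.38 in sandwich day 8 and 5.66, 5.60 and 5.71 in monolayer day 3, 7.67-fold higher. The rate-limiting Cyp7a1 lay near the bottom of the scale in both groups, at 4.67, 4.70 and 4.63 in sandwich day 8 and 4.18, 4.54 and 4.35 in monolayer day 3, and did not pass (difference 0.31, adjusted p = 0.0552). With arrays centred on their medians its adjusted p was 0.0491, and without monolayer day 3 replicate 2 it was 0.0216. The uptake carrier of bile acids Slc10a1 was 5.67-fold higher, with 9.07, 9.26 and 8.97 in sandwich day 8 and 6.68, 6.37 and 6.74 in monolayer day 3, and the export pump Abcb11 was 1.74-fold higher. Among hepatic transporters as a whole 13 of 29 were higher and 5 lower, with the organic anion carrier Slc17a3 2.55-fold lower.

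Of 25 measured liver transcription factors, 12 were higher and 1 lower, with a median of 0.33. The nuclear receptors of drug response Nr1i3 and Nr1i2 were higher by 1.78 and 0.92, the clock-controlled factor Dbp was 4.35-fold and the glucocorticoid-responsive Klf15 2.52-fold higher. Hnf4a, the central regulator of the hepatocyte programme, was 1.39-fold higher, with levels of 10.83, 10.94 and 10.77 in sandwich day 8 and 10.37, 10.29 and 10.48 in monolayer day 3. Cebpa, a partner of it, overlapped between the groups (8.80, 8.57 and 8.45 in sandwich day 8, 8.70, 8.12 and 8.01 in monolayer day 3, adjusted p = 0.431). Foxa2 was the member called lower, at -0.36; none was called lower without monolayer day 3 replicate 1 or 3 or sandwich day 8 replicate 3, and 2 were without monolayer day 3 replicate 2.

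The actin and contractility genes went the other way as a group. Of 30 measured members, none was higher and 23 were lower in sandwich day 8, with a median of -0.95; at an unadjusted p under 0.05 limma found none higher and 25 lower. Msn, which ties actin to the membrane, was 5.24-fold lower, Flna, which cross-links actin filaments, 4.46-fold, and Cnn2, an actin-binding calponin, 4.35-fold. Cnn2 levels were 9.37, 9.28 and 9.04 in sandwich day 8 and 11.45, 11.28 and 11.32 in monolayer day 3. Acta2, the smooth muscle actin of activated stellate cells, did not follow: its levels of 8.11, 7.26 and 7.28 in sandwich day 8 overlapped 8.01, 7.81 and 7.56 in monolayer day 3 (difference -0.25, adjusted p = 0.625).

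Several contractile genes are known targets of SRF, a transcription factor that binds the CArG box and responds to free actin, and 2 promoters with that box are shown. The box was searched on both strands in the same RefSeq promoters and was found in 1.64% of all and in 2 of the 26 found for measured actin genes, Acta1 and Cnn2. Both stretches are the 150 bases before the start, at 19:68784195-68784344 for Acta1 and 7:10370313-10370462 for Cnn2, both on the minus strand. Capitals mark the box, from 94 to 85 bases before the start in Acta1 and from 71 to 62 bases in Cnn2. The Tagln window holds no such match, and a match shows no binding.
Acta1: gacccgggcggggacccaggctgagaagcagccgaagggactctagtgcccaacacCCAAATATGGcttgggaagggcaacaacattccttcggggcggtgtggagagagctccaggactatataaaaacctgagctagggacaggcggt
Cnn2: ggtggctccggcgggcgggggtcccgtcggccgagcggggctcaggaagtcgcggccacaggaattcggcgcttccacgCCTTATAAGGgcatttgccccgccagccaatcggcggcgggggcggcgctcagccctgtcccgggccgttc

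Targets of serum response and of YAP, a co-activator that responds to spreading and tension, had 12 of 24 members lower and 2 higher. Over all genes 14.2% were lower and 10.7% higher. Myof, a membrane repair protein, was 5.56-fold, Cav1, the coat protein of caveolae, 5.23-fold and Fhl2, a cofactor of SRF, 4.12-fold lower. Srf itself was at -0.75 and was called. The 2 that were higher were Lgals1, a galectin, at 1.45 and Ccn2, a matricellular growth factor, at 0.46; without monolayer day 3 replicate 2, or without sandwich day 8 replicate 1 or 2, the count of higher members was 1.

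Genes of the mesenchymal transition and of intermediate filaments had 16 of 30 lower and 2 higher (4 higher without sandwich day 8 replicate 3). Besides Sox4 and Cd24, the hyaluronan receptor Cd44 was 2.43-fold and the calcium-binding S100a11 1.96-fold lower, and the hepatocyte keratins Krt8 and Krt18 were at -0.94 and -0.61. Vim, the intermediate filament of mesenchymal cells, was on the other side. Its levels were 10.79, 10.53 and 10.23 in sandwich day 8 and 8.92, 8.47 and 8.88 in monolayer day 3, 3.38-fold higher (difference 1.76, SE 0.15, adjusted p = 2.34e-09). Fibronectin, Fn1, was at 0.02, and did not pass.

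Adhesion and matrix genes went both ways, beside 10.7% higher and 14.2% lower over all genes. Integrins and focal adhesion genes had 14 of 29 lower and 4 higher; Lims1, an adaptor at focal adhesions, was 2.99-fold and Vcl, vinculin, 2.08-fold lower. Collagen and matrix genes had 13 of 35 higher and 5 lower. Col1a2, a chain of type I collagen, had levels of 8.31, 6.95 and 6.46 in sandwich day 8 and 5.06, 4.64 and 4.58 in monolayer day 3, a difference of 2.47. Sparc, a collagen-binding matricellular protein, was 2.05-fold and Vtn, vitronectin, 2.28-fold higher. The laminin chain Lamb3 was 2.58-fold lower and the collagen cross-linking enzyme Lox differed by -1.03.

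The matrix rises depended in part on sandwich day 8 replicate 1, which was the highest of its group for Col1a2, Sparc, Acta1, Acta2, Adamts1 and the beta-actin 3′ minus 5′ value. Without it 8 matrix genes were called higher in place of 13, and the Col1a2 difference was 1.94. Col1a1 was then no longer called (adjusted p = 0.0655 by limma, against 0.00544 with all arrays). With a filter that takes out probe sets of low value, 7 matrix genes were called higher and 2 lower, against 13 and 5. Among matrix proteases and inhibitors 8 of 31 were lower and 3 higher, against 14.2% lower and 10.7% higher over all genes. Timp1, the inhibitor of matrix metalloproteinases, was 2.43-fold lower, while Adamts1, a secreted protease, had 7.29, 6.66 and 6.20 in sandwich day 8 and 4.44, 4.64 and 4.84 in monolayer day 3.

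Junction genes went both ways, with 7 of 28 higher and 7 lower, against 10.7% higher and 14.2% lower over all genes. The gap junction connexin Gjb2 was 2.19-fold, the tight junction claudin Cldn3 1.84-fold and the adhesion molecule Epcam 2.21-fold higher, and Cldn7 was higher by 1.84 on the log2 scale. Cldn2, a claudin that forms cation pores, was 2.58-fold lower, with levels of 7.81, 7.86 and 7.48 in sandwich day 8 and 9.27, 9.03 and 8.96 in monolayer day 3. The desmosomal genes Dsp and Jup were at -0.76 and -0.68, and E-cadherin, Cdh1, at 0.24 did not pass.

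Genes of DNA replication and mitosis were lower in 27 of 35 measured members and higher in none, with a median of -0.57; at an unadjusted p under 0.05 limma found 29 lower and none higher. Mcm6, a subunit of the replicative helicase, had levels of 4.80, 4.58 and 4.89 in sandwich day 8 and 6.67, 6.57 and 6.66 in monolayer day 3 (difference -1.88). Ube2c, which marks mitotic cyclins for destruction, was 2.19-fold lower, and the proliferation antigen Mki67 lay low in both groups, at 3.34, 3.52 and 3.36 in sandwich day 8 and 4.14, 4.52 and 4.47 in monolayer day 3. Many of these genes lie near the bottom of the scale: with a filter on low values 16 were called lower. The D-type cyclins parted, as Ccnd1 was 2.94-fold lower and Ccnd2 2.57-fold higher in sandwich day 8.

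Most measured genes of energy and stress were not called. Oxidative phosphorylation had 9 of 39 members higher and none lower, the most at 0.54 (Ndufb3, of complex I), and at an unadjusted p under 0.05 limma found 16 higher and none lower. Glycolysis had 2 of 20 higher and 3 lower, near the shares over all genes of 10.7% higher and 14.2% lower. Ldhb, a lactate dehydrogenase, was 1.76-fold higher and the glucose carrier Slc2a1 1.47-fold lower. Without monolayer day 3 replicate 1 or 2, or sandwich day 8 replicate 2 or 3, 1 glycolysis gene was called higher. Without monolayer day 3 replicate 2, 5 were called lower, as with a filter on low values. Read by the mean over all probe sets of a gene, 5 glycolysis genes were called higher and 6 lower. Endoplasmic reticulum stress had 9 of 28 higher and 3 lower; Herpud1, of protein degradation at that organelle, was 2.73-fold higher and the chaperone Hspa5 1.62-fold. Oxidative stress genes had 4 of 24 higher and 2 lower, with a median of 0.09; Cat, catalase, was 2.03-fold higher and Gpx1, a glutathione peroxidase, 2.11-fold lower. Without monolayer day 3 replicate 3, or without sandwich day 8 replicate 2, 2 of them were called higher.

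Heat shock genes had 6 of 15 lower, the most Dnajb4 at -0.51, against 14.2% lower and 10.7% higher over all genes. The 1 that was higher was Hspe1, a chaperonin of mitochondria, at 0.23 (adjusted p = 0.0402 by limma). None was called higher without monolayer day 3 replicate 1 or 3, without sandwich day 8 replicate 2 or 3, or with arrays centred on their medians. Without monolayer day 3 replicate 3 or sandwich day 8 replicate 3, 3 were called lower. Hspb1, a small heat shock protein, was 1.34-fold lower but not called without either of these arrays (adjusted p = 0.0541 and 0.0502). Hsp90ab1, a cytosolic chaperone, was 1.31-fold lower but not called without monolayer day 3 replicate 2 (adjusted p = 0.0659) or sandwich day 8 replicate 3 (0.0585).

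Of 33 measured inflammatory genes, 10 were higher and 7 lower, with chemokines on both sides. Over all genes 10.7% were higher and 14.2% lower. The interferon-responsive chemokines Cxcl11 and Cxcl9 were 5.21-fold and 2.52-fold lower, and Ccl2, a chemokine for monocytes, was lower at -1.51. The chemokines Cxcl12 at 0.98, Ccl20 at 0.89, Cxcl1 at 0.79 and Cxcl2 at 0.58 were higher. Nfkbiz, a nuclear regulator of NF-kB targets, was 4.12-fold higher, with 7.99, 8.14 and 7.68 in sandwich day 8 and 5.82, 5.69 and 6.18 in monolayer day 3.

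**Figure D3:**
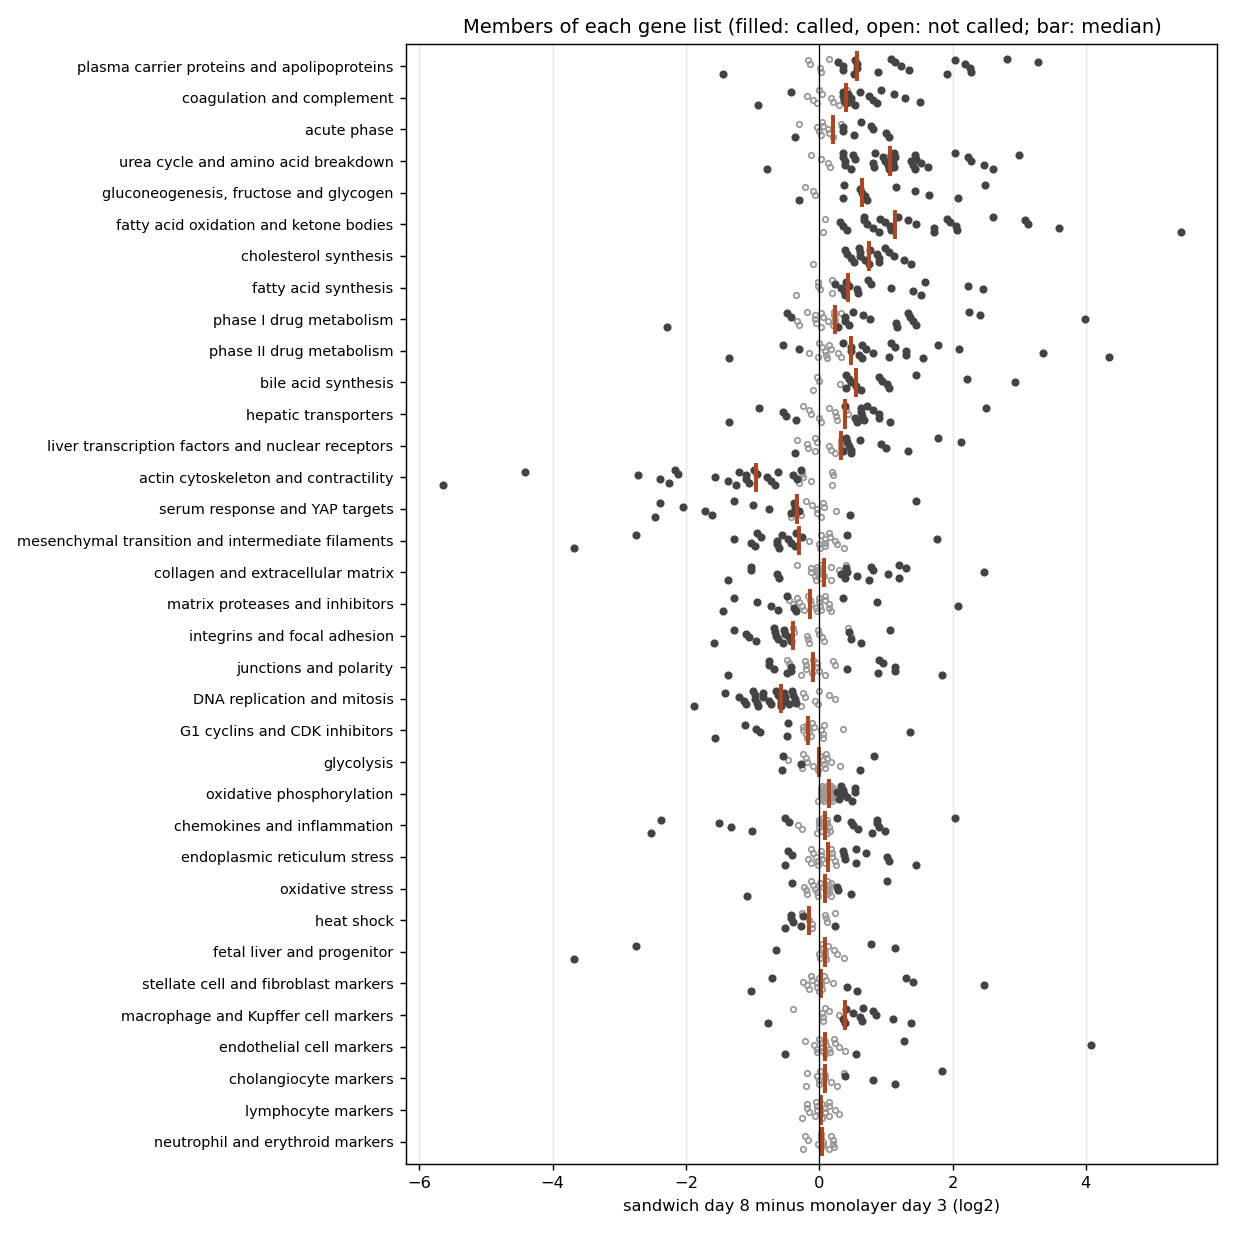
Sandwich day 8 minus monolayer day 3 (log2) for each measured member of the 35 gene lists, as filled points where called and open points where not, with an orange bar at each list's median. The medians of amino acid breakdown (1.06) and fatty acid oxidation (1.13) lie furthest to the right, and that of actin and contractility (-0.95) furthest to the left.

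Markers of other liver cells were examined because a hepatocyte preparation can carry them. In bulk arrays, more cells of a type and more RNA per cell cannot be told apart. Macrophage and Kupffer cell markers were higher in 11 of 19 members and lower in 1, against 10.7% higher and 14.2% lower over all genes. Their mean level was 6.44 to 6.63 on the sandwich day 8 arrays and 6.10 to 6.20 on the monolayer day 3 arrays. Lyz2, lysozyme, was 2.59-fold, the endotoxin co-receptor Cd14 2.14-fold and the complement chain C1qc 1.81-fold higher, whereas Clec4f, a lectin of rodent Kupffer cells, at -0.39 did not pass and Cd5l was called lower at -0.77. The list's median difference was 0.39 against monolayer day 3 and 0.01 against monolayer day 8, and Lyz2 stood at 7.33, 8.33, 9.11 and 10.97 on monolayer days 1, 2, 3 and 8. Without monolayer day 3 replicate 1, or without sandwich day 8 replicate 2, 2 of the markers were called lower. Their part in the inflammatory and matrix results was not tested.

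Stellate cell and fibroblast markers had 5 of 22 higher and 2 lower, with mean levels of 5.41 to 5.59 in sandwich day 8 and 5.23 to 5.34 in monolayer day 3. The 5 were the collagen genes Col1a1, Col1a2 and Col3a1, the pericyte gene Rgs5 (2.64-fold) and Colec11; Col1a1 was not called without sandwich day 8 replicate 1 (adjusted p = 0.0655). The defining genes Gfap, Lrat, Pdgfra, Dcn, Lum and Thy1 lay below 5.63 in both groups, and Des, desmin, and Pdgfrb differed by 0.00 and 0.03. Endothelial markers had 3 of 21 higher and 1 lower. Clec14a at 4.08, Fcgr2b at 1.27 and Ehd3 at 0.55 were higher, and Esam at -0.52 was lower. Pecam1, Tek, Vwf, Lyve1 and Stab2 differed by no more than 0.08 and lay below 5.63 in both groups. Mean endothelial levels were 5.20 to 5.26 in sandwich day 8 and 4.82 to 4.94 in monolayer day 3. The shares called over all genes, beside these list counts, were 10.7% higher and 14.2% lower. Cholangiocyte markers had 4 of 15 higher, and Krt19, a keratin of bile ducts, at 4.92, 4.91 and 4.52 in sandwich day 8 and 4.55, 4.53 and 4.49 in monolayer day 3 did not pass (adjusted p = 0.107). Krt19 was called without sandwich day 8 replicate 3 (adjusted p = 0.0115). None of 18 lymphocyte or 14 neutrophil and erythroid markers was called by limma, while 1 and 2 of them had an unadjusted p under 0.05. Without sandwich day 8 replicate 3 the erythroid factor Gata1 was called lower (adjusted p = 0.032).

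A level that the monolayer never reached on a sampled day was sought next. A gene was taken as outside the monolayer course where sandwich day 8 was higher, or lower, than the monolayer at each of days 1, 2, 3 and 8, tested by the largest of the 4 p-values with adjustment over all probe sets. In these terms 1145 of 14217 genes were outside (8.05%), 589 above (4.14%) and 556 below (3.91%); by probe set the count was 1738 (5.60%), with 921 above (2.97%) and 817 below (2.63%). In 957 genes (6.73%) the 3 sandwich day 8 arrays all lay above the 12 monolayer arrays, and in 1190 (8.37%) below them. The other called genes either lay within the range of the monolayer days or missed this stricter test, and the sampled days leave days 4 to 7 unseen.

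The hepatocyte lists held most of the list members above the monolayer course. Fatty acid oxidation had 23 of 28 members above and amino acid breakdown 27 of 38, and neither list had a member below, nor one at an unadjusted p under 0.05 by limma. Cyp17a1 lay 4.25 above the highest monolayer day, Clec14a 4.07, Pdk4 3.84, Ugt2b1 3.76 and Sult2a2 3.20. The innate immunity gene Pglyrp1 and the lipid carrier Mfsd2a lay 2.78 and 2.67 above. Cyp17a1 stood at 4.86, 5.76, 6.73 and 9.53 on sandwich days 1, 2, 3 and 8 and at 4.62, 5.27, 5.01 and 5.19 on the same monolayer days. Its level parted from the monolayer as the days went on, as did that of Ugt2b1, with 6.71, 8.38, 9.25 and 11.67 in the sandwich and 7.29, 7.91, 7.33 and 7.09 in the monolayer.

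Genes below the monolayer course included metabolic, cell cycle and cytoskeletal ones. Mat2a stood at -2.90 from the lowest monolayer day, with 7.82, 7.99, 7.62 and 5.11 on sandwich days 1, 2, 3 and 8 and 8.01, 8.33, 8.14 and 8.48 on those monolayer days. The distances below were -2.11 for Ifgga2l1, -1.94 for Car3, -1.69 for Fabp7, -1.64 for Mcm6 and -1.41 for Fhl2. Ndrg1, which responds to low oxygen, and Lgals3, a galectin of stressed cells and macrophages, lay at -1.49 and -1.43. Among the lists, actin and contractility had 12 of 30 members below and replication and mitosis 9 of 35.

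Not every large fall was outside the course. Acta1 stood at 4.50, 5.82, 6.10 and 6.12 on sandwich days 1, 2, 3 and 8 and at 6.49, 9.44, 11.76 and 11.77 on monolayer days 1, 2, 3 and 8. Its sandwich day 8 level was thus near that of monolayer day 1, and the test of the distance below the course did not pass (distance -0.37, adjusted p = 1). Tagln, with 6.88 in sandwich day 8, lay between monolayer day 1 at 6.32 and day 2 at 9.21. Sandwich day 8 also lay between monolayer days 1 and 2 for Marcksl1, at 7.34 against 6.72 and 8.49, and for Myof, at 5.94 against 5.46 and 6.83. The median of the actin list was -0.03 against monolayer day 1, -0.63 against day 2 and -0.95 against day 3, so the list as a whole stood nearest to the first day.

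Lists of hepatocyte genes differed in their medians against the monolayer days. The amino acid list had medians of 1.14, 0.93, 1.06 and 1.67 against monolayer days 1, 2, 3 and 8, and the fatty acid oxidation list 0.82, 0.98, 1.13 and 1.08. Phase I genes had 0.10, 0.15, 0.24 and 0.52, and liver transcription factors 0.09, 0.22, 0.33 and 0.54, close to 0 against monolayer day 1. The matrix list had 0.42, 0.31, 0.07 and -0.15, which crosses 0 between days 3 and 8. Members differed among themselves, so these medians describe the lists and not each gene.

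A group of genes stood in sandwich day 8 beyond monolayer day 3 on the way to monolayer day 8. Col1a2 had 4.34, 4.33, 4.73 and 7.24 on sandwich days 1, 2, 3 and 8 and 4.13, 4.32, 4.76 and 8.14 on monolayer days 1, 2, 3 and 8. Vim had 5.94, 6.38, 7.15 and 10.52 in the sandwich and 6.12, 6.92, 8.76 and 12.86 in the monolayer. Ccnd2 had 7.76 in sandwich day 8 and 9.01 in monolayer day 8, against 6.40 in monolayer day 3. Falling genes did likewise, as Ces1c had 11.22, 9.54, 7.95 and 5.98 in the sandwich and 11.14, 9.70, 8.26 and 6.19 in the monolayer, nearly the same level in both cultures on each day. Serpina6 likewise had 4.42 in sandwich day 8 and 4.03 in monolayer day 8, against 5.86 in monolayer day 3, and Cxcl9 had 5.76 in sandwich day 8 and 5.68 in monolayer day 8, against 7.10 in monolayer day 3.

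**Figure D4:**
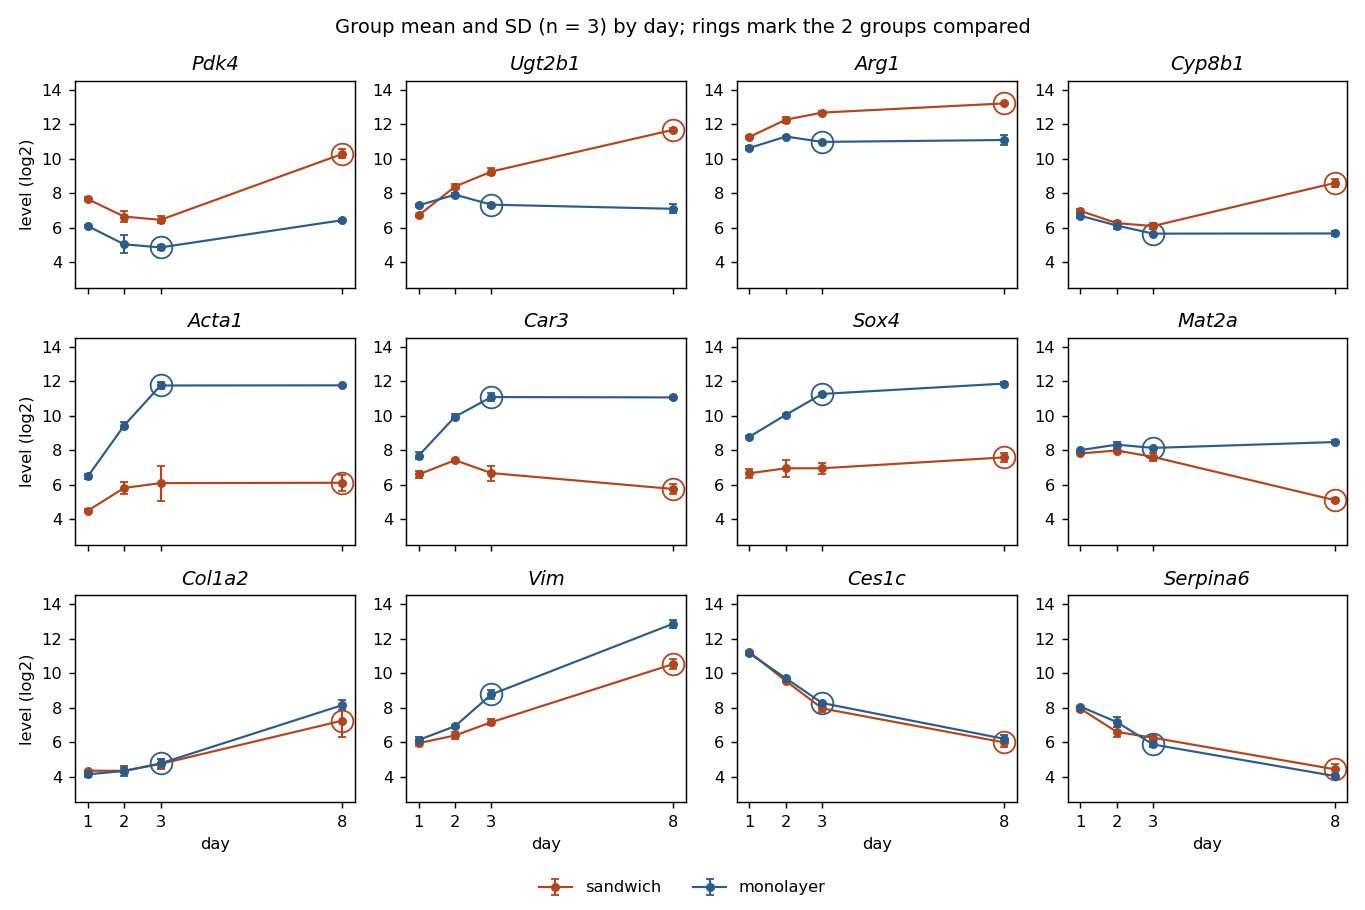
Mean level (log2) with SD (n = 3) on days 1, 2, 3 and 8 for 12 genes in the sandwich (orange) and the monolayer (blue), with rings on sandwich day 8 and monolayer day 3. By day 8 the genes of the upper row lie above every monolayer mean. Acta1 in the middle row rises from 4.50 to 6.12 in the sandwich and ends near monolayer day 1 (6.49). The lower row (Col1a2, Vim, Ces1c, Serpina6) changes with days in the same direction in both cultures.

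The genes that the monolayer itself changes over time were chosen as called and at least 2-fold different between monolayer days 8 and 1. Those means came from arrays outside the comparison, but the spread behind the calls was estimated on all 24 arrays. Of 544 genes that rose there, sandwich day 8 was lower than monolayer day 3 in 243 (44.7%), higher in 99 (18.2%) and not called in 202, with a median of -0.28. Of 449 that fell there, it was higher in 148 (33.0%), lower in 67 (14.9%) and not called in 234, with a median of 0.07. For most called genes of both sets sandwich day 8 therefore lay on the side of the younger monolayer. Over all genes 10.7% were higher and 14.2% lower, so the share lower among the fallen set was near that of all genes. Among the risen, Acta1, Car3, Tagln, Sox4 and Plscr2 were lowest, and Cpt1a, Pglyrp1, Pck1, Col1a2 and Cyp1a1 highest. Among the fallen, Fabp1, Apoc1, Gde1, Cyp8b1 and Hrg were highest, and Cxcl11, Ces1c, Dio3, Plaat5 and Serpina6 lowest. Dio3, which inactivates thyroid hormone, was 3.10-fold lower and Plaat5, a phospholipid acyltransferase, differed by -1.52.

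The genes that the sandwich changed over its first days gave another picture. Of 210 genes that rose at least 2-fold between sandwich days 1 and 3, 154 were higher in sandwich day 8 than in monolayer day 3 (73.3%) and 22 lower, with a median of 0.89, and 128 lay above the monolayer course. Of 97 that fell, 27 were lower (27.8%) and 14 higher (14.4%), against 14.2% lower and 10.7% higher over all genes. The means behind either choice came from none of the 6 arrays compared, but the estimate of spread was shared with them. The counts are a description.

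**Figure D5:**
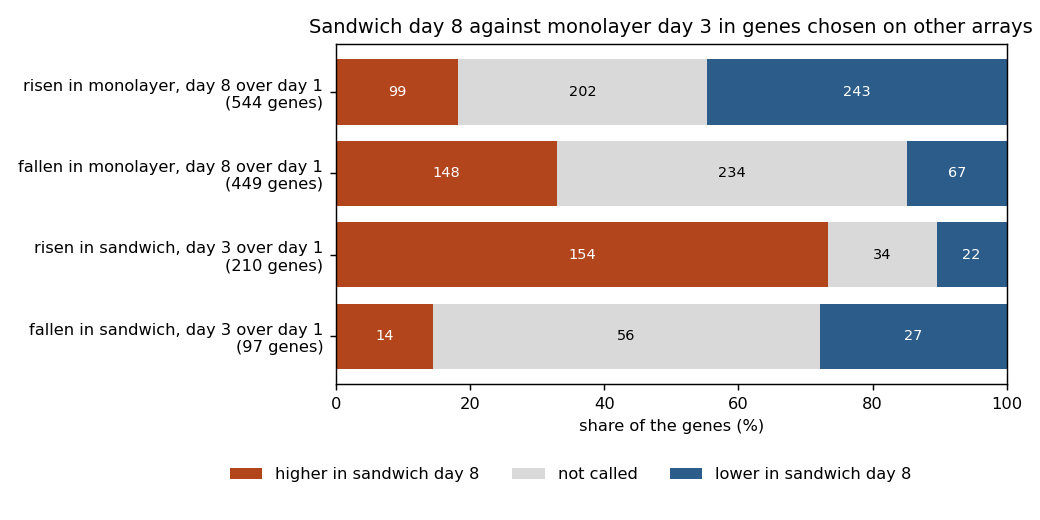
Share (%) of genes called higher (orange), not called (grey) or called lower (blue) in sandwich day 8 against monolayer day 3, in 4 sets of genes, with the number of genes printed in each bar. The sets were chosen on differences between other arrays, with a spread estimated on all arrays. The set that rose in the early sandwich is 73.3% higher, and the set that rose in the monolayer is 44.7% lower.

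Of the 168 genes named by rule, 155 were called, and none had another probe set called in the opposite direction. Further probe sets did not always follow. For Ces1c, Lims1, Nfkbiz and Reln the other probe set of the gene was not called. Some genes followed in part. Mat2a, Hnf4a and Klf15 had 3 probe sets each, with 1 called the same way besides the one read. Cxcl3 had 5, with 2 others called the same way, and Sox4 had 7, with 5 others.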

How the data were processed

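The authors deposited log2 values per probe set, and these entered the tests unaltered. Per the submitters' processing notes RMA and limma were used, with no version or role given; array medians lay between 5.57 and 5.67. Symbols came from the platform annotation, updated by gene identifier to RefSeq: 20826 probe sets had 1 symbol, 436 several and 9780 none, and a gene was read by its probe set of highest mean over 24 arrays (4525 of 14217 genes had several). Detection calls are absent, and the count of 3 arrays per group limits precision. A model of 8 group means was fitted to all 24 arrays in limma 3.58.1 (R 4.3.3), with Benjamini-Hochberg adjustment over 31042 probe sets, two-sided. Scripts were tested on simulated data.

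The comparison and the 35 gene lists were chosen with earlier results of these data known, so lists are described by counts and medians without a set test. Genes named by rule are the 12 largest rises and falls whose arrays do not overlap, the 8 furthest above and below the monolayer course, the 5 most different in each direction among genes risen or fallen in the monolayer, the 4 of smallest adjusted p per list, and a fixed set of liver genes (Alb and Hnf4a among them). Other list members named were chosen after their values were seen. No batch is given in the labels.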

Additional observations from a re-analysis of the deposited data

How the results depend on the processing

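The counts for the comparison, the monolayer course and the course sets were recomputed under up to 17 settings, and 184 of 196 such values stayed within 1.5 times the value reported. Those that did not follow from the setting's own construction: a filter on low values left 9419 probe sets with an interval within 0.5 (22872 without it), the 2-fold requirement left 752 probe sets (426 higher, 326 lower), and choosing course probe sets at 4-fold left 45 higher and 112 lower among the monolayer risen (167 and 387 at 2-fold), 36 and 21 among the monolayer fallen (236 and 99), 28 and 4 among the sandwich risen (205 and 30) and 2 and 5 among the sandwich fallen (27 and 49). With 1 array of either group left out, 4751 to 5170 probe sets were called (2152 to 2305 higher, 2516 to 2998 lower) and 1396 to 1574 lay outside the monolayer course. Same-numbered replicates of the 2 groups had correlations of deviations of 0.38, -0.10 and 0.14, and the labels do not say what a shared number means. With the replicate block 6555 probe sets were called by limma (2903 higher, 3652 lower), against 5732 without it. In that fit 2082 lay outside the course, against 1738, and Cebpa was called (adjusted p = 0.0221). Whether same-numbered replicates share a source was not tested. Of the 168 genes, 161 stayed on the same side of the threshold under every setting and none reversed. Besides the matrix and replication lists, only list counts under 10 moved by over 1.5 times. The platform's compressed top and unknown background limit fold changes at both ends of the scale.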
